A study of Mus musculus with 2 samples.

Results

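Nuclear genes of oxidative phosphorylation (OXPHOS) were followed in single cells of RM-1 tumours, by respiratory complex, cell class, tumour state and library. They were taken by name: every listed gene whose symbol begins with Nduf, Uqcr or Atp5, or with Cox and a digit of 4 to 8. This gave 90 of the 32285 genes listed in each library (0.279%), of which 88 had at least 1 unique molecular identifier (UMI, a tag that marks 1 captured RNA molecule) in each library. By symbol they fell into 36 genes of complex I, 8 assembly factors of complex I, 8 genes of complex III, 19 of complex IV and 17 of complex V (ATP synthase). Cox7a2l, an assembly factor of respiratory supercomplexes, and Ndufb1-ps, a row named as a pseudogene, were kept apart. The 90 genes lie on 19 chromosomes, and 89 are annotated as protein-coding.

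RM-1 is a mouse prostate cancer line, here labelled WT in genotype and grown under the skin of C57BL/6 mice. One group of tumours was treated with RP-6306, an inhibitor of PKMYT1, the kinase that holds CDK1 inactive before mitosis, and the other with vehicle, and both were taken on day 10. Sorted CD45+ leukocytes were pooled with tumour cells 3 to 1, so the shares of cell types were set by the experiment, and a 3′ droplet library was made of each pool. Each group is 1 library, and the labels do not say how many mice it came from. No difference between RP-6306 and vehicle could therefore be set against the spread between animals, and no test was made; every interval below covers counting error only.

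Respiratory complexes I, III and IV pass electrons from NADH and ubiquinol to oxygen and pump protons across the inner mitochondrial membrane, and complex V lets the protons back to make ATP. Most of their subunits are encoded in the nucleus and imported, while a core set is encoded in mitochondrial DNA, so both genomes must be expressed to build them. In tumours these genes are known for serving cell growth, and in lymphocytes for serving resting and memory states and activation.

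After filtering, 14921 cells with 147877892 UMIs remained in the RP-6306 library and 16123 cells with 127354973 UMIs in the vehicle library, with a median of 2846 and 3107 UMIs per cell. The libraries had 374 cell barcodes in common. OXPHOS genes gave 1.51% of the UMIs in the RP-6306 library and 1.33% in the vehicle library. The tumour-like class (3401 cells with RP-6306 and 3193 with vehicle) was made of clusters 7, 11 and 13. None of its chosen markers was among the 10 genes of largest fold in clusters 7 and 13, and those of cluster 7 held Col3a1, a collagen gene; those of CD8 T-like cluster 3 held Ly6c2 and Ikzf2 and no CD8 gene. Results for these classes are therefore also given by cluster number. Unnamed clusters held 11.1% of the RP-6306 cells and 22.2% of the vehicle cells and entered no class.

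The promoters of these genes are known for sites of NRF1, of GABPA and other ETS factors, and of YY1, and the letters of these sites were searched on both strands in RefSeq promoters of GRCm38.p6, from 250 bases before to 50 after each start. Of the 90 genes, 74 matched a promoter. The NRF1 palindrome, GCGCATGC followed by GC, was in 7 of them (9.46%), against 1.07% of the 27025 genes with a promoter in the table. Its shorter form GCGCATGC, which each palindrome holds on both strands over shared letters, was in 11 (14.9%, against 3.05% of all). The letters AAGATGGC (YY1) were also in 11 (14.9%, against 3.19%), 7 of them complex I genes and 3 complex V genes. CCGGAAGT (GABPA) was in 5 (6.76%, against 4.31%). These are matches of letters, not measured binding.

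The promoters of 7 genes are printed, 150 bases up to the start, 5′ to 3′ on the gene's strand, with the matched letters in capitals. The first 4 hold the palindrome: Atp5g2, 1 of the 3 genes of the rotor subunit c (chr15:102671048-102671197, minus strand), Atp5k, subunit e (chr5:108434400-108434549, minus strand), the assembly factor Ndufaf4 (chr4:24897933-24898082, plus strand) and the complex I subunit Ndufa11 (chr17:56717612-56717761, plus strand). Uqcr11 of complex III (chr10:80406822-80406971, minus strand) and Atp5h, subunit d of the ATP synthase stalk (chr11:115419920-115420069, minus strand), hold CCGGAAGT, which reads ACTTCCGG in Atp5h. Ndufa6 of complex I (chr15:82354292-82354441, minus strand) holds the short form, read as GCATGCGC. Ndufaf4 and Atp5h are shown because they were among the genes higher in RP-6306 tumour cells, and Ndufa6 as the complex I gene furthest below its vehicle level. The others are examples, and not every promoter with these letters is printed. Uqcr11 and Ndufaf4 also hold the short form across or after the start, which is not in capitals. Whether the letters go with the ratios was not tested.
Atp5g2: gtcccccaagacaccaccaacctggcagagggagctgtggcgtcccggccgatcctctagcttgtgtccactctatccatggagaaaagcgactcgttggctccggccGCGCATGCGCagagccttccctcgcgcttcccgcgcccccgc
Atp5k: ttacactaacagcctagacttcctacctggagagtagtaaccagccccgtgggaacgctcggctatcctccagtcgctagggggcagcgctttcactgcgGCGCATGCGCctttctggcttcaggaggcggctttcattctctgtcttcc
Ndufaf4: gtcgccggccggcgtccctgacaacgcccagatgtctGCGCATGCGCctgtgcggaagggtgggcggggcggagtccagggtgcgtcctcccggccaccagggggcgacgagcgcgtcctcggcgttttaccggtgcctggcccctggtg
Ndufa11: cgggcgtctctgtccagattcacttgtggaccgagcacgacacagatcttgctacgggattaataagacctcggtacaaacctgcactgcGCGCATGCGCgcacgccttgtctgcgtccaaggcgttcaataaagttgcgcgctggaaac
Uqcr11: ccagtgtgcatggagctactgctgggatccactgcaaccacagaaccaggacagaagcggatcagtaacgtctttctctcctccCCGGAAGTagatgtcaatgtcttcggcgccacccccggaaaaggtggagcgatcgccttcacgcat
Atp5h: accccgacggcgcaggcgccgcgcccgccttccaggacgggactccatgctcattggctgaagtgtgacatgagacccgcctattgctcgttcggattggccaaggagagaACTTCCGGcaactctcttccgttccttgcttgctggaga
Ndufa6: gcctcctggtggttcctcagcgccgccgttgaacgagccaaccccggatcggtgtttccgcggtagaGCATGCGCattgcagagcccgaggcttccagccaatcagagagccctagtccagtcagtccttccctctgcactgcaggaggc

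Levels are given as CPM, the usual scaling of a gene's UMIs to all UMIs of its class and library, on which 16855 CPM is 1.69% of the UMIs. The 3′ method gives 1 tag per molecule whatever its length, so CPM compares molecules and was not divided by gene length. Tumour-like cells stood highest, with summed OXPHOS levels of 16855 CPM with RP-6306 and 15427 CPM with vehicle. Macrophage and monocyte-like cells followed with 13616 and 11889 CPM, then NK-like cells with 11862 and 11045 CPM. CD8 T-like cells had 9253 and 8879 CPM, CD4 T-like cells 8825 and 8520 CPM, and B cells 8835 and 8646 CPM, in each pair RP-6306 before vehicle. T cells called neither CD8 nor CD4 had 11436 and 11215 CPM, close to the NK-like cells. The order of tumour-like, macrophage and monocyte-like, NK-like and CD8 T-like cells was the same in both libraries, and CD4 T-like and B cells lay close together. Neutrophil-like cells were lowest, with 5773 and 6084 CPM in 45 and 55 cells.

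**Figure D1:**
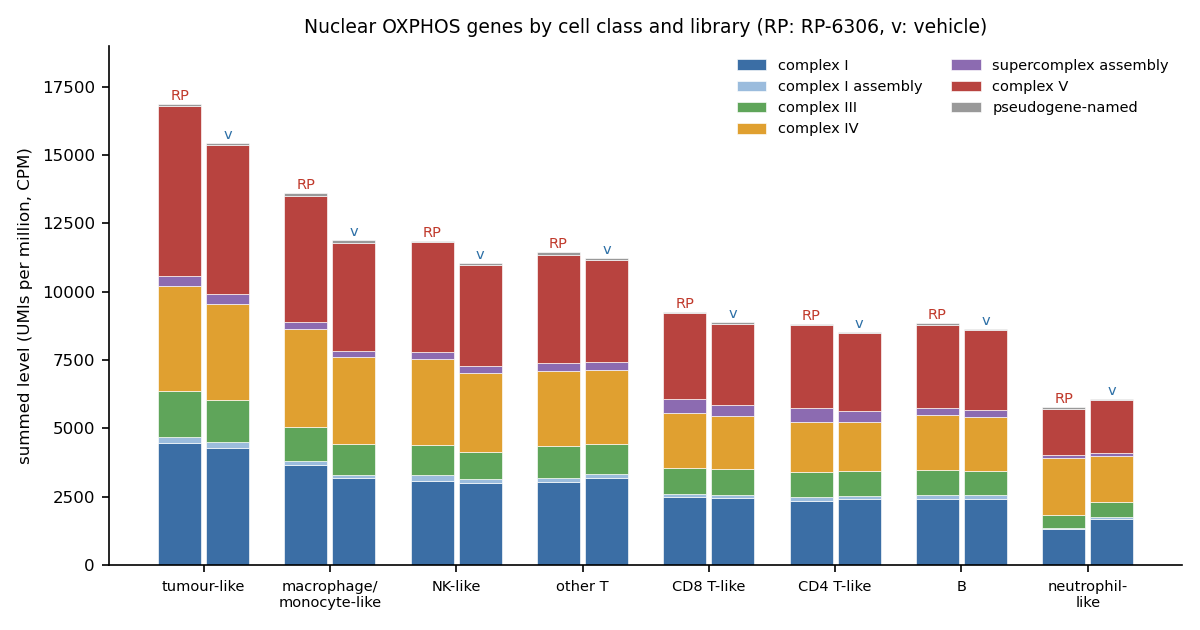
Summed CPM of the nuclear OXPHOS genes (vertical axis) in 8 cell classes, with an RP-6306 bar to the left of a vehicle bar for each class and colours for the complexes. Tumour-like cells stand at 16855 and 15427 CPM, and neutrophil-like cells at 5773 and 6084 CPM, while the complexes take similar shares of most bars.

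In molecules per cell the gap was far wider, since tumour-like cells held more RNA. A tumour-like cell averaged 556.5 OXPHOS UMIs with RP-6306 and 420.2 with vehicle, a macrophage or monocyte-like cell 128.0 and 77.0, a CD8 T-like cell 27.1 and 28.6, and a B cell 18.3 and 20.2. When every cell was thinned to 2000 UMIs, the median cell had 33 OXPHOS UMIs with RP-6306 and 30 with vehicle in the tumour-like class, where the quartiles were 27 to 38 with RP-6306 and 26 to 35 with vehicle. The thinned medians were 26 and 23 in macrophage and monocyte-like cells, 22 and 21 in NK-like cells, 18 and 18 in CD8 T-like cells, 17 and 17 in CD4 T-like cells, and 17 and 16 in B cells. The unthinned medians were 519 and 401 in tumour-like cells and 16 and 18 in B cells. Thinning left out 20 and 17 tumour-like cells but 1899 and 1354 B cells, which were too shallow.

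The complexes kept nearly the same proportions in every class with over 100 cells per library. Complex I gave 26.0% to 28.4% of the OXPHOS UMIs, complex III 9.06% to 10.7%, complex IV 20.8% to 27.0% and complex V 33.2% to 36.8%. Complex V took its largest share in tumour-like cells, 36.8% with RP-6306 and 35.2% with vehicle. Complex IV took its largest in macrophage and monocyte-like cells, 26.3% and 27.0%, and in NK-like cells, 26.6% and 26.1%. Where classes differed, they differed mostly in the whole set and less in its make-up.

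Single genes departed from that pattern. Of 85 OXPHOS genes with at least 20 UMIs in each library, 76 were higher in tumour-like than in CD8 T-like cells in both libraries, with a median log2 ratio of 0.91 with RP-6306 and 0.76 with vehicle. Over 15950 genes by the same rule, 59.7% were higher in both, with medians of 0.36 and 0.35. Of 83 OXPHOS genes, 67 were higher in macrophage and monocyte-like than in CD8 T-like cells (medians 0.62 and 0.42, against -0.0056 and -0.10 over all genes), and of 82, 58 were higher in NK-like than in CD8 T-like cells (0.36 and 0.31, against 0.09 and 0.09). These classes were clustered on the same cells, so the contrasts are descriptions. The widest gap was that of Uqcrq, a small subunit of complex III, with 386 CPM with RP-6306 and 373 CPM with vehicle in tumour-like cells, against 100 and 113 CPM in CD8 T-like cells. Ndufab1, the mitochondrial acyl carrier protein that complex I also uses as a subunit, had 208 and 179 CPM in tumour-like cells, against 60.6 and 51.4 CPM in CD8 T-like cells. Ndufb9, an accessory subunit of complex I, had 277 and 276 CPM, against 83.7 and 88.5 CPM. Each of these 3 genes was over 3 times as high in the tumour cells.

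A few genes ran the other way. Uqcrh, the hinge protein of complex III, had 271 CPM with RP-6306 and 288 CPM with vehicle in tumour-like cells, against 364 and 350 CPM in CD8 T-like cells. Ndufs4 of complex I had 95.5 and 95.2 CPM in tumour-like cells, against 120 and 118 CPM in CD8 T-like cells. Cox7a2l had 490 CPM with RP-6306 and 402 CPM with vehicle in CD8 T-like cells, against 267 and 258 CPM in B cells, 237 and 215 CPM in macrophage and monocyte-like cells, and 249 and 244 CPM in NK-like cells. Cox7a2l had the widest gap of all OXPHOS genes between CD8 T-like and B cells, and it was at 488 and 424 CPM in CD4 T-like cells. As a set, CD8 T-like and B cells differed little: of 82 genes, 27 were higher and 36 lower in CD8 T-like cells in both libraries, with medians of -0.02 and -0.03, against -0.10 and -0.12 over all genes. Between tumour-like and macrophage and monocyte-like cells, 66 of 86 genes were higher in tumour-like cells in both libraries and 16 lower. Over 15835 genes these shares were 60.8% and 28.3%. The medians of the OXPHOS genes were 0.22 with RP-6306 and 0.33 with vehicle, under the 0.36 and 0.39 of all genes. Atp5g2 gave a wide gap between these classes, 745 and 702 CPM against 351 and 257 CPM. Atp5mpl, a small subunit of complex V, was lower in tumour-like cells, 82.9 and 74.1 CPM against 148 and 130 CPM.

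Nuclear OXPHOS transcripts were also set beside the 13 mitochondrially encoded subunits. The nuclear sum was 1.42 times the mitochondrial sum with RP-6306 and 1.30 times with vehicle in tumour-like cells, 1.51 and 1.58 in macrophage and monocyte-like cells, and 1.48 and 1.47 in NK-like cells. It was 0.878 and 0.875 in CD8 T-like cells, 0.873 and 0.857 in CD4 T-like cells and 0.680 and 0.752 in B cells. CD8 T-like, CD4 T-like and B cells thus held more mitochondrially encoded than nuclear message and the classes before them the reverse, as did the remaining T cells, at 1.38 and 1.61.

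In tumour-like cells OXPHOS genes were slightly and broadly higher with RP-6306. Of 86 genes with at least 20 UMIs over both libraries, 78 had a higher level with RP-6306, and the median log2 ratio of CPM plus 1 was 0.12, against 0.01 over all 17460 genes with as many UMIs, of which 52.5% were higher. The counting interval lay above 0 for 67 genes and below 0 for 6. Such intervals are narrow for genes with many UMIs. The share over all genes was not counted in this class, so these 2 counts have no background beside them. The shift was small for each gene: 6 genes had a log2 ratio of at least 0.32, as did 6.80% of all genes, and 2 lay as far below 0, as did 7.12%, so the share past that bound was near the background in the higher direction. These counts moved with the setting, to 3 higher and 0 lower with 10 CPM added, 3 and 2 with size factors, 4 and 1 with the mean of per-cell CPM, and 9 and 0 with cells thinned to 2000 UMIs. When low genes were set aside (a minimum of 50 CPM and of 50 UMIs in the higher library), 66 of 72 OXPHOS genes were higher with RP-6306, with a median of 0.12, against 60.1% of 4019 genes and a median of 0.04. Of these 72, 4 were past the bound of 0.32 on the higher side and 1 on the lower, against 7.44% and 5.23% of the 4019 genes.

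All 17 genes of complex V were higher with RP-6306, with a median of 0.17 and sums of 6209 CPM with RP-6306 and 5433 CPM with vehicle. Complex III had 7 of 8 higher, a median of 0.16 and sums of 1671 and 1555 CPM. Complex IV had 14 of 15 higher, a median of 0.09 and sums of 3854 and 3494 CPM. Complex I had 32 of 36 higher, a median of 0.09 and sums of 4466 and 4286 CPM, and its assembly factors 7 of 8 and a median of 0.15. The medians of the complexes lay between 0.09 and 0.17, above that of all genes.

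**Figure D2:**
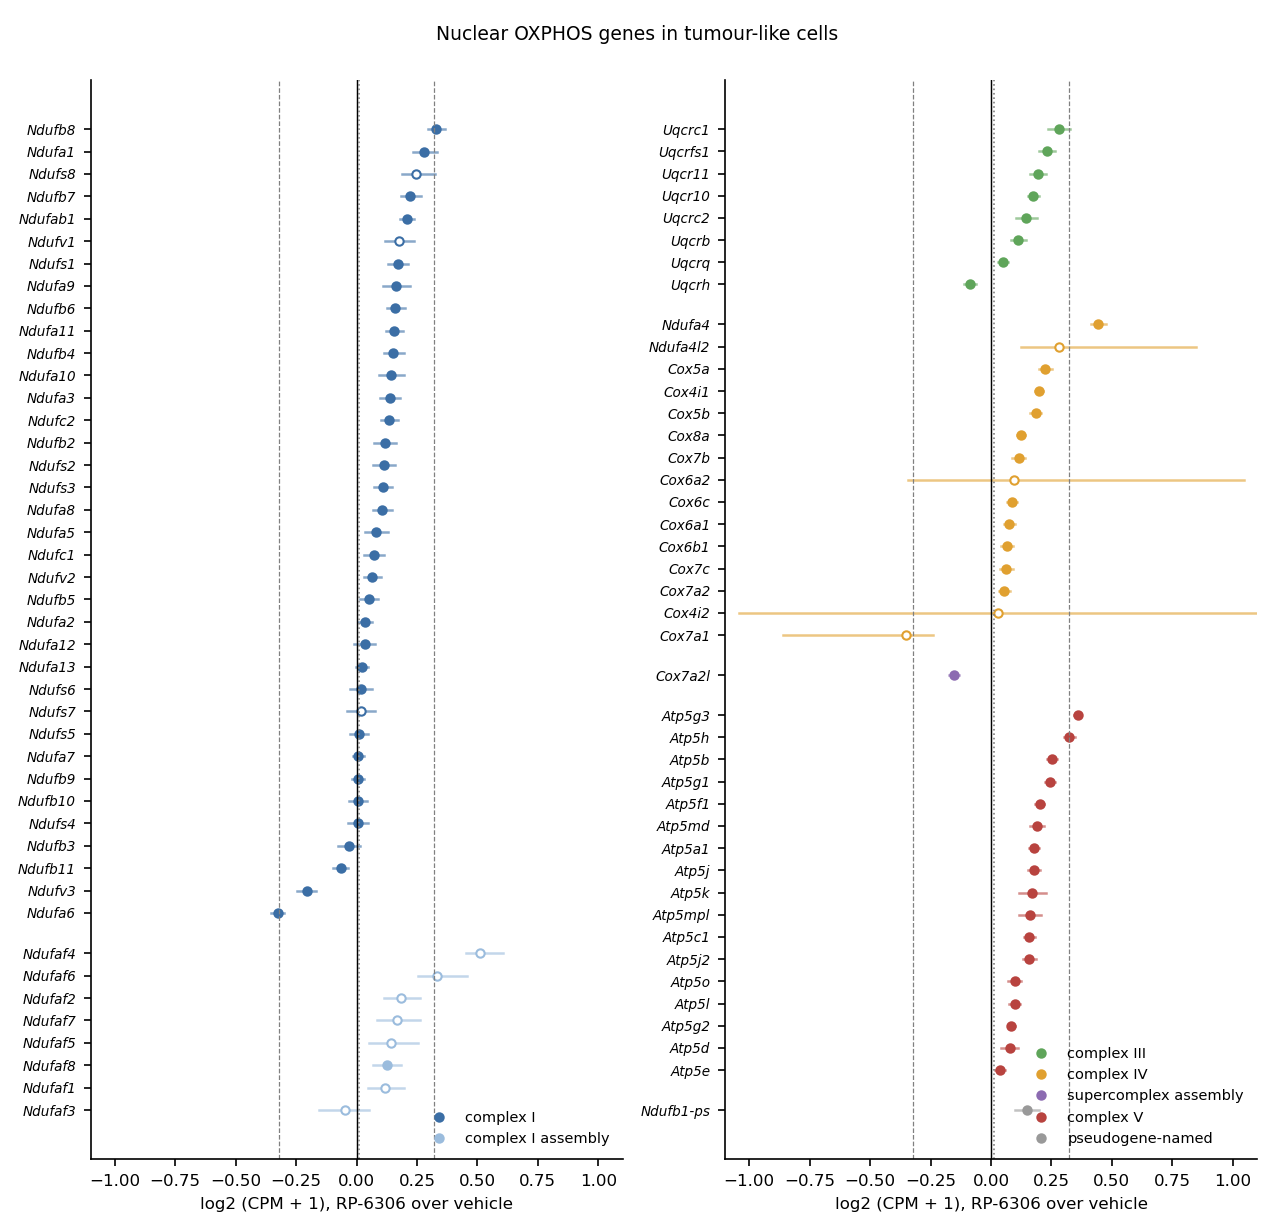
Log2 ratio of CPM plus 1, RP-6306 over vehicle (horizontal axis), of each OXPHOS gene with at least 20 UMIs in tumour-like cells, by complex. Bars are exact 95% counting intervals, without the 1 CPM added (that of Cox4i2 runs past the axis), open points are genes under 50 CPM or 50 UMIs, dashed lines mark 0.32 on either side of 0 and the dotted line the median of all genes; all 17 complex V genes lie right of 0, and Ndufa6, Ndufv3 and Cox7a2l lie left of it.

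Complex V is a rotary machine with a ring of c subunits in the membrane, a central stalk and a peripheral stalk. Atp5g3, 1 of 3 genes that encode the same mature c subunit (chromosome 2, 73908447 to 73911326, minus strand, mm10), had the highest level of all OXPHOS genes, 980 CPM in RP-6306 cells and 764 CPM in vehicle cells, a log2 ratio of 0.36 (0.35 to 0.37). Its sister genes were higher by less: Atp5g1 had 430 and 363 CPM (0.24), and Atp5g2 745 and 702 CPM (0.08). Atp5h, subunit d of the peripheral stalk (chromosome 11, 115415689 to 115419962, minus strand), had 365 CPM with RP-6306 and 291 CPM with vehicle (0.32, interval 0.30 to 0.35). Atp5f1, subunit b of the same stalk, had 497 and 432 CPM (0.20). The smallest ratios were those of the central stalk genes Atp5e, 384 and 374 CPM (0.04), and Atp5d, 137 and 130 CPM (0.08). The counting intervals of the 3 genes of the c subunit did not overlap, and the difference between their ratios was not tested.

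In complex IV, cytochrome c oxidase, Ndufa4 stood apart. Named for complex I, it is known as a subunit of complex IV (chromosome 6, 11900292 to 11907497, minus strand), and it had 219 CPM with RP-6306 and 161 CPM with vehicle, a log2 ratio of 0.44 (0.42 to 0.48). Cox5a, a matrix-side subunit, had 258 and 221 CPM (0.22). Cox4i1, the regulatory subunit that binds nucleotides, had 617 and 538 CPM (0.20), and Cox8a, a small membrane subunit, 676 and 620 CPM (0.12). The small membrane subunits Cox7a2, at 288 and 277 CPM (0.06), and Cox7c, at 238 and 227 CPM (0.06), were lowest among those with at least 50 CPM. Cox7a2l was lower with RP-6306 in these cells, 359 CPM against 400 CPM with vehicle (log2 -0.15, interval -0.17 to -0.13), the opposite side of 0 from its ratio in T cells.

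In complex III, Uqcrc1, a core protein, had 90.5 CPM with RP-6306 and 74.4 CPM with vehicle (0.28), and Uqcrfs1, the Rieske iron-sulfur protein, 165 and 141 CPM (0.23). Uqcrh was the only complex III gene below 0 (-0.09), and Uqcrq was close to 0 (0.05, interval 0.03 to 0.07). Uqcrc1 and Uqcrfs1 thus lay above 0 and Uqcrh below it in the same cells.

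Complex I was the most mixed. Ndufb8, an accessory subunit of its membrane arm (chromosome 19, 44548572 to 44555440, minus strand), had 147 CPM with RP-6306 and 117 CPM with vehicle (0.33, interval 0.29 to 0.37). Ndufa1 had 77.3 and 63.6 CPM (0.28) and Ndufb7 109 and 93.1 CPM (0.22), both also accessory subunits. Against these, Ndufa6, an accessory subunit that holds the acyl carrier protein in complex I (chromosome 15, 82350140 to 82354322, minus strand), had 192 CPM with RP-6306 and 241 CPM with vehicle (-0.33, interval -0.36 to -0.30). Ndufv3, an accessory subunit of the module that oxidises NADH, had 95.8 and 110 CPM (-0.20), and Ndufb11, a membrane-arm subunit, 164 and 172 CPM (-0.07). The ratios of Ndufb8 and Ndufa6 were nearly equal in size and opposite in sign.

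Assembly factors were present at lower levels. Ndufaf8, the only 1 above 50 CPM, had 54.2 CPM with RP-6306 and 49.6 CPM with vehicle (0.12). Below that level, Ndufaf4 had 35.6 and 24.7 CPM, the largest ratio of all OXPHOS genes in tumour-like cells (0.51, interval 0.45 to 0.61), and Ndufaf6 18.8 and 14.7 CPM (0.33). Both, with Ndufa4, Atp5g3, Ndufb8 and Atp5h, are the 6 genes past 0.32 on the higher side. Ndufa6 and the muscle isoform Cox7a1, at 1.46 CPM with RP-6306 and 2.14 CPM with vehicle, are the 2 past it on the lower side. No OXPHOS gene reached 1.5-fold.

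The 18 chosen markers of the tumour cells, 1 of them at 0 in each library, summed to 2949 CPM with RP-6306 and 3004 CPM with vehicle in the tumour-like class, against 116.5 and 223.5 CPM in CD8 T-like cells. RP-6306 tumour-like cells differed from vehicle cells in other ways that go along with the shift of OXPHOS genes. They were deeper, with a median of 31293 UMIs against 26256 UMIs. More were called in S phase, 21.2% against 14.3%, or in G2/M, 29.0% against 21.03%, and fewer in G1, 49.8% against 64.7%. The summed level of 9 hypoxia genes was 797 CPM with RP-6306 and 1014 CPM with vehicle, that of 6 stress chaperones 255 and 493 CPM, and that of 17 dissociation stress genes 4753 and 5777 CPM. Marker sums of leukocytes stayed low, with T genes at 13.6 and 14.9 CPM, macrophage and monocyte genes at 26.5 and 35.0 CPM and B genes at 31.2 and 33.4 CPM, while fibroblast genes stood at 215.6 and 229.4 CPM. Depth, called phase, hypoxia and stress moved with the shift, and their part in it was not tested.

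Cells were also compared within called cell cycle phases. Within cells called G1 the median ratio was 0.10, within S phase 0.11 and within G2/M 0.10, against 0.02, 0.03 and 0.04 over all genes. Cycle genes still differed within G1-called cells: 16 G2/M genes, all higher with RP-6306, summed to 349 CPM with RP-6306 and 232 CPM with vehicle, and 17 S phase genes to 703 and 541 CPM. OXPHOS sums were 16065 CPM with RP-6306 and 14932 CPM with vehicle in G1, 17410 and 16004 CPM in S phase, and 17448 and 16202 CPM in G2/M. In all 3 phases 63 of 84 OXPHOS genes were higher with RP-6306 (75%, against 37.4% of all genes) and 5 were lower (5.95%, against 24.8%). With a minimum of 50 CPM and 50 UMIs met in every phase, the shares higher were 77.1% of 70 OXPHOS genes and 48.3% of 3556 genes. By cluster the medians were 0.10 in cluster 7, 0.10 in cluster 11 and 0.11 in cluster 13, and all-gene medians were 0.05, 0.03 and 0.03. With cells thinned to 2000 UMIs, cluster 7 had a median of 0.047, under the 0.062 of all genes. Without thinning, 58 of 84 genes were higher in all 3 clusters (69.0%, against 36.6% of all genes) and 5 lower in all 3 (5.95%, against 22.5%). With the same minimum met in every cluster, the shares higher were 74.6% of 71 OXPHOS genes and 46.9% of 3519 genes. Atp5g3 had 882 and 700 CPM in cluster 7 (0.33), 892 and 722 CPM in cluster 11 (0.30) and 1068 and 851 CPM in cluster 13 (0.33). Ndufa6 had 201 and 252 CPM in cluster 7 (-0.33), 217 and 261 CPM in cluster 11 (-0.27) and 170 and 205 CPM in cluster 13 (-0.27). Ndufaf6 was not on 1 side: it was at 17.5 and 18.8 CPM in cluster 7 (-0.10), and its pooled ratio came mainly from cluster 13, with 22.8 and 16.8 CPM (0.42).

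The tumour-like cells were also split into states, with the OXPHOS genes left out of the genes used. States t1 (led by Hist1h1b, Top2a and Mki67), t4 (Cenpa, Cdc20 and Ccnb2) and t7 (Hist1h1b and Rrm2) had higher S phase and G2/M genes than the remaining tumour-like cells. State t2 is led by Gm16685, Ereg, Atf3 and Serpinb2, t3 by Pcdh9 and Cp, t5 by Ero1l, Cryab, Hmox1 and Bnip3, and t6 by Mir100hg and Trim69. Sums were highest in t4, 17931 CPM with RP-6306 and 16798 CPM with vehicle, and lowest in t5, 14400 and 13739 CPM. State t3 was next lowest, with 15045 and 14449 CPM. The gap between t4 and t5 was wider than that between libraries within any state.

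**Figure D3:**
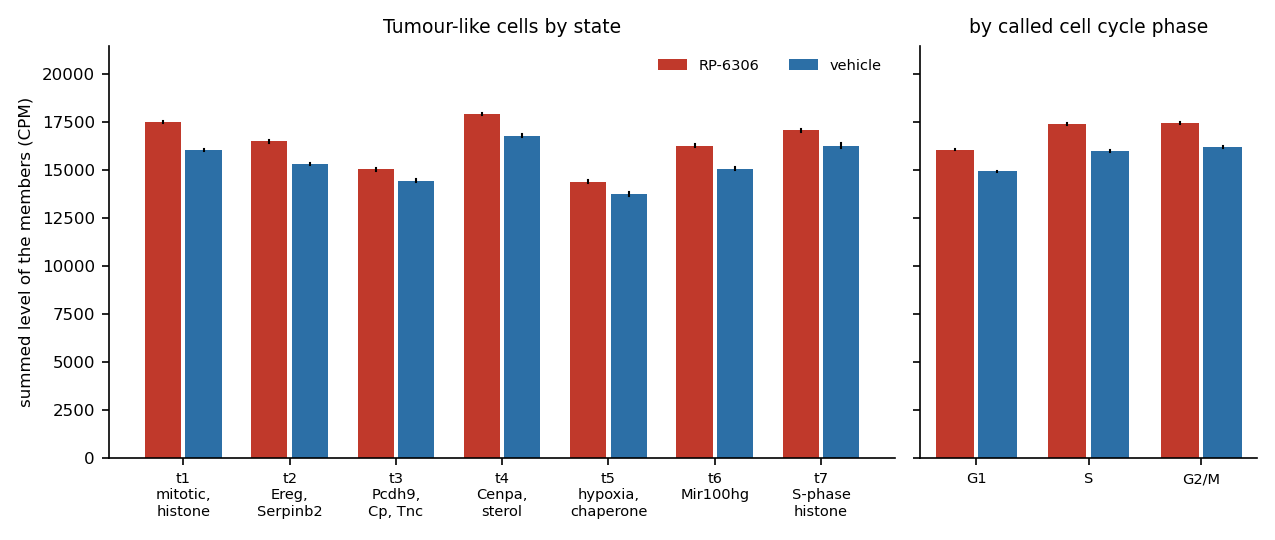
Summed CPM of the nuclear OXPHOS genes (vertical axis) in tumour states t1 to t7 and, on the right, in called cell cycle phases, with the RP-6306 bar to the left of the vehicle bar. Error bars are exact 95% counting intervals; state t4 stands highest and t5 lowest in both libraries, and RP-6306 is above vehicle in each pair.

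Of 72 genes with at least 50 CPM and 50 UMIs, 40 had their highest level in t4 with RP-6306 and 32 with vehicle, and 42 and 46 had their lowest in t5. Another 4 and 22 had their highest in t7, and 25 and 15 their lowest in t3. The same was not counted over all genes, so these counts do not set OXPHOS genes apart. Among t1 to t7, state t5 also had the highest sums of hypoxia genes, 1918 CPM with RP-6306 and 1701 CPM with vehicle, and of stress chaperones, 679 and 1194 CPM. Its summed level of 15 glycolysis genes was the highest of these states, 12156 CPM with RP-6306 and 10187 CPM with vehicle. With all cells thinned to 2000 UMIs, the median cell of t4 had 36 OXPHOS UMIs with RP-6306 and 34 with vehicle, and that of t5 28 and 27. The ratio of RP-6306 over vehicle was smaller within each of t1 to t7 than in the pool, if only slightly so in t1: medians were 0.12 in t1, 0.10 in t2, 0.05 in t3, 0.08 in t4, 0.05 in t5, 0.10 in t6 and 0.06 in t7. Over all genes they were 0.03, 0.01, 0.04, 0.04, 0.04, 0.03 and 0.03 in the same order, so the medians of t3 and t5 were near the background. In all 7 states 27 of 82 OXPHOS genes were higher with RP-6306 (32.9%, against 15.7% of all genes) and 2 lower (2.44%, against 7.12%). With the minimum of 50 CPM and of 50 UMIs met in every state, the shares higher were 35.3% of 68 OXPHOS genes and 25.2% of all. Atp5h was among the 27, with ratios from 0.23 to 0.37, and Ndufa6 was lower in all 7, from -0.43 to -0.10.

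Not every gene followed the order of the states. Uqcrq varied most, and its highest level was in t5, 498 CPM with RP-6306 and 437 CPM with vehicle, while its lowest was in t3, 215 and 241 CPM. Ndufa5, a peripheral-arm subunit of complex I, was lowest in t5, 44.8 and 47.6 CPM, and highest in t1, 89.1 and 87.2 CPM. Uqcr11 was lowest in t5, 97.4 and 99.0 CPM, and highest in t4, 188 and 179 CPM. Cox5a was lowest in t3, 156 and 155 CPM. Ndufa6 was lowest in the histone-high state t7, 144 and 194 CPM, and highest in t3, 269 and 289 CPM, so it ran against the set between states as well as between libraries. Over the 3 clusters, Ndufa5, Uqcr10 and Ndufv3 had the widest range. Ndufa5 had 88.1 and 87.3 CPM in the mitotic cluster 13, against 65.7 and 64.2 CPM in cluster 11 and 64.2 and 68.3 CPM in cluster 7. Uqcr10, a small subunit of complex III, had 341 and 321 CPM in cluster 13, against 257 and 237 CPM in cluster 11. Ndufv3 had 82.7 and 94.2 CPM in cluster 13, against 111 and 122 CPM in cluster 11.

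Among leukocytes the largest shift was in macrophage and monocyte-like cells (537 cells with RP-6306 and 530 with vehicle). Of 85 genes, 75 were higher with RP-6306, with a median of 0.20 against 0.08 over 10733 genes. Here 21 were past the bound of 0.32 on the higher side, as were 25.2% of all genes, and 1 on the lower side, as were 14.1%. Of 70 genes above the minimum of 50 CPM, 14 were past the bound higher and 0 lower, against 18.4% and 9% of all such genes. The share past the bound was thus about the background in the higher direction and under it in the lower. Ndufa10, an accessory subunit of complex I, had 56.3 CPM with RP-6306 and 37.3 CPM with vehicle (0.58, interval 0.29 to 0.91), Ndufb4, a membrane-arm subunit, 106 and 72.5 CPM (0.54), and Ndufs8, an iron-sulfur subunit, 54.9 and 39.0 CPM (0.48). Above the minimum of 50 CPM the lowest ratios were those of Uqcrh, 205 and 235 CPM (-0.20, interval -0.33 to -0.06), Ndufb1-ps, 102 and 105 CPM (-0.03), and Ndufv2, 84.6 and 86.2 CPM (-0.03). Under that minimum, Cox6a2 was the 1 gene past the bound on the lower side (-0.70, with 48 and 55 UMIs). Of these UMIs, 43 and 53 were in sub-cluster m11, of 7 and 14 cells. Within m11 its level was higher with RP-6306, 1263 CPM against 857 CPM with vehicle. The c subunit genes had 488 and 363 CPM for Atp5g3 (0.43), 321 and 239 CPM for Atp5g1 (0.42) and 351 and 257 CPM for Atp5g2 (0.45).

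Other broad sets moved alongside in these cells. The 13 mitochondrially encoded subunits had a median of 0.29, the 78 mitochondrial ribosome genes 0.26 and the 87 cytosolic ribosomal protein genes tested 0.20, and the cells were deeper with RP-6306, with a median of 7695 UMIs against 5741 UMIs. The mix of sub-clusters differed too. Sub-clusters m5 (48 and 34 cells), m9 (16 and 21 cells) and m11 (7 and 14 cells) had dendritic cell markers among their leading genes. These were Cd209a in m5, Ccr7 and Fscn1 in m9, and Siglech in m11. Sub-cluster m1, led by Mmp12, Fn1 and Spp1, held 181 and 120 cells and had a median of 0.24, against 0.13 over all genes, while m2, led by Havcr2, Chil3 and Plac8, held 60 and 113 cells and had a median of 0.06, against 0.04. Sums were 13897 and 12093 CPM in m1 and 12801 and 12036 CPM in m2. With sub-clusters m1 to m9 given equal weight in both libraries, the median was 0.18. The median in m2 was thus near that of all genes; the difference between m1 and m2 was not tested.

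In lymphocytes the medians were near those of all genes with at least 20 UMIs. In CD8 T-like cells (2492 cells with RP-6306 and 2688 with vehicle) 48 of 82 genes were higher, with a median of 0.04 against 0.02 over all genes; 1 gene was past 0.32 on the higher side, as were 11.1% of all genes, and 2 on the lower, as were 14.8%. The medians were 0.04 in cluster 1 and 0.01 in cluster 3. In CD4 T-like cells (2959 and 1708 cells) 49 of 82 were higher, with a median of 0.05 against 0.02, and 2 were past the bound higher and 3 lower, where 14.4% and 15.8% of all genes were. In B cells (3466 and 3514 cells) 40 of 82 were higher, with a median of -0.01 against 0.00, and 0 passed the fold, where 9.78% were higher and 17.1% lower. In NK-like cells (145 and 413 cells) 54 of 81 were higher, with a median of 0.10 against 0.05, and 18 passed the fold higher and 3 lower, where 23.5% and 18.4% did. The NK-like median moved with the setting: it was 0.055, against 0.064 over all genes, for genes with at least 100 UMIs, and 0.031, against 0.056, with cells thinned to 2000 UMIs. Low genes, whose ratios scatter most, make up part of that background. Above the minimum of 50 CPM, 1 of 63 genes was past the bound higher and 0 lower in CD8 T-like cells, against 7.07% and 3.27% of all such genes. The counts were 1 and 1 of 61 in CD4 T-like cells, against 11% and 3.94%, then 0 and 0 of 61 in B cells, against 7.68% and 3.61%, and 6 and 2 of 48 in NK-like cells, against 11.4% and 14.6%. Over all genes above that minimum, the medians were 0.06 in CD8 T-like, 0.07 in CD4 T-like, 0.05 in B and -0.03 in NK-like cells. Beside these, the OXPHOS medians given at 20 UMIs, another rule, were lower in CD8 T-like, CD4 T-like and B cells and higher in NK-like cells.

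**Figure D4:**
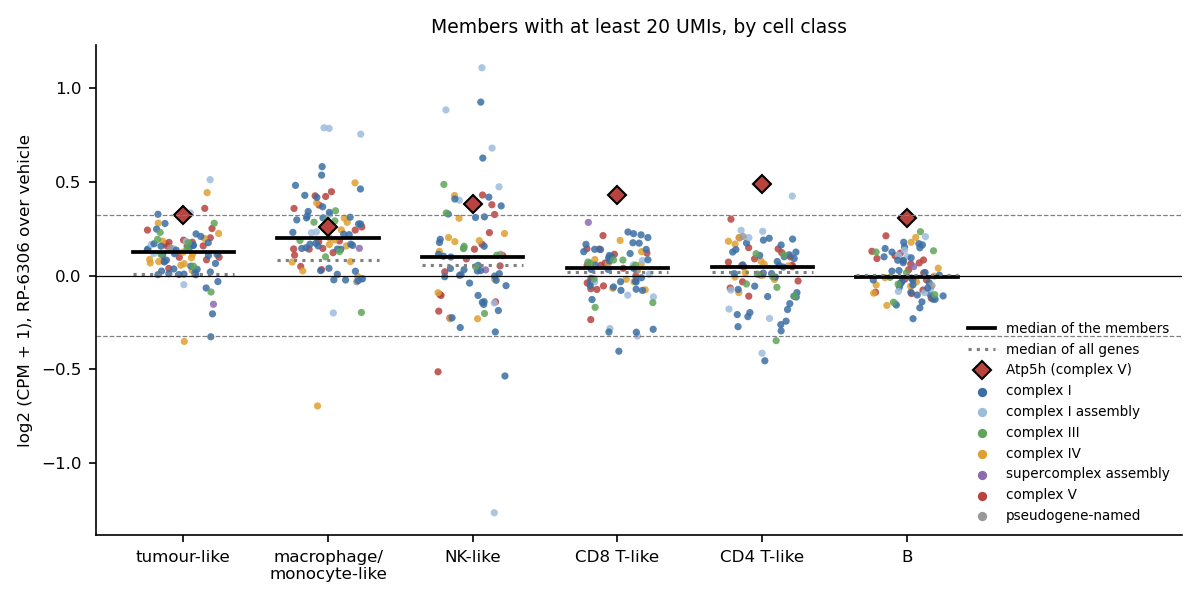
Log2 ratio of CPM plus 1, RP-6306 over vehicle (vertical axis), of each OXPHOS gene with at least 20 UMIs, in 6 cell classes, coloured by complex. Solid bars are the medians of the OXPHOS genes, dotted bars those of all genes, and dashed lines mark 0.32 on either side of 0; the diamond is Atp5h, which lies between 0.26 and 0.49 in every class.

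Atp5h was higher with RP-6306 in every lymphocyte class, and above the minimum of 50 CPM it had the largest ratio in CD8 T-like, CD4 T-like and B cells. It had 275 CPM with RP-6306 and 204 CPM with vehicle in CD8 T-like cells (0.43, interval 0.34 to 0.52), 283 and 201 CPM in CD4 T-like cells (0.49), 196 and 158 CPM in B cells (0.31), 351 and 269 CPM in NK-like cells (0.38), and 287 and 239 CPM in macrophage and monocyte-like cells (0.26). It was at 273 and 195 CPM in CD8 cluster 1 and 291 and 233 CPM in cluster 3. Of 81 genes tested in all 6 classes, 15 were higher with RP-6306 in every class (18.5%, against 11.2% of 7199 genes by the same rule) and 0 were lower in every class, as were 4.28% of those genes. With the same minimum met in every class, 8 of 45 OXPHOS genes were higher throughout (17.8%), against 14.3% of 1717. Atp5h was the only OXPHOS gene whose counting interval lay above 0 in all 6 classes, as it did for 49 of the 7199 genes (0.681%). With the minimum met in every class, it did so for 1 of 45 OXPHOS genes and for 44 of 1717 genes (2.56%), so such a gene was about as frequent in the background. With 1 library per group, treatment and library cannot be told apart.

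Other lymphocyte genes are named by the same rule. In CD8 T-like cells Cox7a2l had 490 and 402 CPM (0.28, interval 0.22 to 0.35), with 504 and 432 CPM in cluster 1 and 432 and 346 CPM in cluster 3, and Ndufab1 60.6 and 51.4 CPM (0.23). On the low side were Ndufc2, an accessory subunit of complex I, with 51.9 and 64.2 CPM (-0.30), Ndufs6, another, with 40.8 and 50.02 CPM (-0.29), and Uqcrq, with 100 and 113 CPM (-0.17). In CD4 T-like cells Atp5d had 150 and 122 CPM (0.30) and Ndufa4 114 and 98.9 CPM (0.20). Uqcrq had 94.3 CPM with RP-6306 and 120 CPM with vehicle there (-0.35, interval -0.52 to -0.18), Ndufs1, an iron-sulfur subunit, 50.3 and 61.0 CPM (-0.27), and Ndufc2 52.2 and 62.8 CPM (-0.26). Uqcrq and Ndufc2 were low in both T cell classes.

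In B cells Uqcrc2, a core protein of complex III, had 83.9 CPM with RP-6306 and 71.2 CPM with vehicle (0.23) and Atp5d 171 and 147 CPM (0.21). Ndufb9 had 81.7 and 92.1 CPM (-0.17), Cox7b of complex IV 97.2 and 109 CPM (-0.16), and Uqcrq 94.3 and 104 CPM (-0.14, interval -0.29 to 0.0035). The B class held a shallow cluster 4, with 329 and 448 cells and a median of 1062 UMIs, whose own median was 0.25, against 0.08 over all genes, while cluster 15, with 3019 and 2930 cells, had 0.01. In NK-like cells the catalytic β subunit Atp5b had 256 and 190 CPM (0.43) and Cox5a 263 and 195 CPM (0.43). Atp5o, which joins the stalk to the catalytic head, had 97.2 and 139 CPM (-0.51, interval -1.05 to -0.02), Ndufs7, an iron-sulfur subunit, 47.4 and 69.2 CPM (-0.54), and Ndufb9 107 and 129 CPM (-0.28). The NK values rest on few molecules, 20 and 86 UMIs for Ndufs7.

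Tumour cells held more OXPHOS message, so the leukocyte values were also set beside an estimate of free tumour RNA in droplets. The estimate does not tell free RNA from droplets that also held a tumour cell. The part of free tumour RNA in these values was not tested. From tumour marker genes its share was estimated as 3.92% of the UMIs of CD8 T-like cells with RP-6306 and 7.50% with vehicle, 5.40% and 10.1% in B cells, 4.68% and 8.52% in CD4 T-like cells, 2.60% and 6.53% in NK-like cells, and 1.86% and 3.55% in macrophage and monocyte-like cells. It was thus lower with RP-6306 in each class. With that share subtracted the medians were 0.07 in CD8 T-like cells, 0.08 in CD4 T-like cells and 0.07 in B cells, while those of all genes were 0.06, 0.06 and 0.03 after the same subtraction, also above their values without it. Uqcrq, low in T and B cells with RP-6306, is among the genes with the widest tumour to lymphocyte gap; the part of free RNA in its values was not tested.

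Several subunits of complex IV have a second gene used in certain tissues: Cox6a2, Cox7a1 and Cox8b in heart and skeletal muscle, Cox4i2 in lung, Cox6b2 and Cox8c in testis, and Ndufa4l2 as a hypoxia-induced relative of Ndufa4. The common partners Cox4i1, Cox6a1, Cox6b1, Cox7a2 and Ndufa4 were at 98.9 to 617 CPM in the 6 classes. Cox8b and Cox8c had 0 UMIs among 14921 and 16123 cells, and Cox7b2 had 1 UMI in each library. The other restricted forms stayed under 20 CPM in every class.

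**Figure D5:**
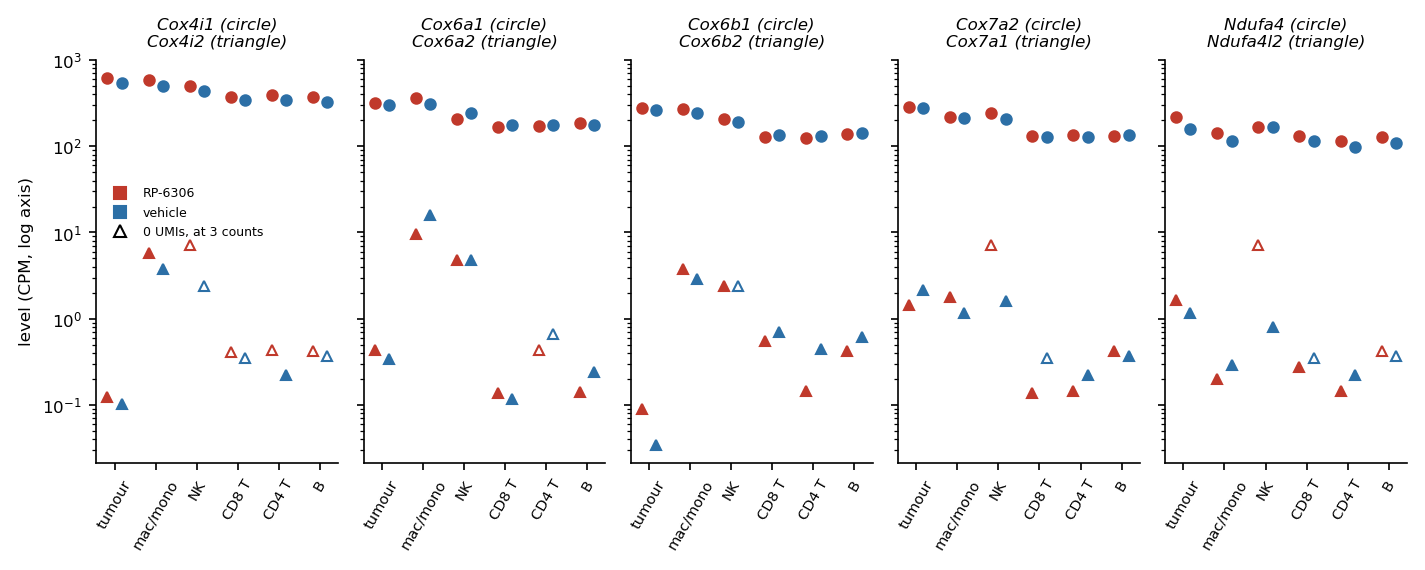
CPM on a log axis (vertical) of 5 restricted genes of complex IV (triangles) and their common partners (circles) in 6 cell classes, RP-6306 to the left of vehicle. Open triangles are genes at 0 UMIs, drawn at the level 3 counts would give; partners stand at 98.9 to 617 CPM, and restricted forms below 20 CPM.

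Of the Cox4i2 UMIs, 29 of 46 with RP-6306 and 13 of 24 with vehicle were in macrophage and monocyte-like cells, in 23 and 12 cells. Its level was 5.74 CPM with RP-6306 and 3.79 CPM with vehicle in that class, against 0.125 and 0.103 CPM in tumour-like cells, while CD8 T-like cells had 0 UMIs, which allows up to 0.411 and 0.347 CPM. NK-like cells also had 0 UMIs, but in so few cells that up to 7.11 and 2.41 CPM would be allowed. By sub-cluster, with RP-6306 it was at 27.9 CPM (6 UMIs) in m7, led by Hspa1a, Egln3, Ero1l, Slc2a1 and Bnip3, 17.5 CPM (3 UMIs) in m9 and 9.37 CPM (12 UMIs) in m4, led by Ccl8, Ccl12 and Mrc1. With vehicle it was at 11.03 CPM (2 UMIs) in m7, 0 UMIs in m9 and 15.3 CPM (5 UMIs) in m4, so these few molecules gave no shared order. Most Ndufa4l2 UMIs were in tumour-like cells, 184 of 199 UMIs with RP-6306 and 102 of 107 UMIs with vehicle (1.64 and 1.17 CPM), and B cells had 0 UMIs, which allows up to 0.417 and 0.366 CPM. It had 5.72 CPM with RP-6306 (41 UMIs) and 1.32 CPM with vehicle (8 UMIs) in t5, and 3.27 CPM (28 UMIs) and 3.93 CPM (12 UMIs) in t7. With vehicle, t8 (2.21 CPM, 7 UMIs) and t2 (1.46 CPM, 33 UMIs) were also above t5. In t10, a state led by Cdh5 and Lgals7 that held 135 RP-6306 cells and 3 vehicle cells, the level with RP-6306 was 11.2 CPM (39 UMIs). Cox7a1 was at 1.46 CPM with RP-6306 and 2.14 CPM with vehicle in tumour-like cells, 1.78 CPM (9 UMIs) and 1.16 CPM (4 UMIs) in macrophage and monocyte-like cells, and 0.417 and 0.366 CPM (3 UMIs each) in B cells.

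Cox6a2, a muscle isoform, had 102 UMIs with RP-6306 and 94 UMIs with vehicle. Of these, 48 and 55 were in macrophage and monocyte-like cells, 43 and 53 of them in the small sub-cluster m11 of 7 and 14 cells. There the level was 1263 CPM with RP-6306 and 857 CPM with vehicle. Of 19 cells of the class with at least 2 Cox6a2 UMIs, 17 also had a UMI of Siglech, a receptor of plasmacytoid dendritic cells, as did 5 of the other 1048 cells (0.477%), while 2 had Lyz2, a lysozyme gene found in 91.9% of the others. Within this class Cox6a2 was thus mostly in cells without Lyz2, a marker of the class. Outside the class most Cox6a2 UMIs were in tumour-like cells at a low level, as in t1 with 24 UMIs with RP-6306 (0.736 CPM) and 9 with vehicle (0.442 CPM). The sub-clusters were formed without the OXPHOS genes, although Cox6a2 was among the variable genes of the first clustering. Cox6b2 had 19 and 10 UMIs in the macrophage and monocyte-like class, of which 6 and 2 were in m5, led by Cd209a.

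Genes of related mitochondrial functions were set beside the OXPHOS genes in tumour-like cells. Of 78 mitochondrial ribosome genes 74 were higher with RP-6306, with a median of 0.15 and sums of 5177 and 4647 CPM. Of 18 genes of the TCA cycle 17 were higher, with a median of 0.19 and sums of 1532 and 1335 CPM, and of 26 import genes 21, with a median of 0.22. Complex II and electron carrier genes had a median of 0.17 (21 of 25 higher). The 13 mitochondrially encoded subunits had a median of 0.07 and sums of 11835 and 11893 CPM, so nuclear and mitochondrial sums did not move in step. Glycolysis genes had a median of -0.05, with 6 of 15 higher, although their sum was 9084 CPM with RP-6306 and 8553 CPM with vehicle, and cytosolic ribosomal protein genes a median of -0.01. Nuclear genes for mitochondria were thus higher as several groups, but none of these groups was tested.

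Some genes carry limits of counting. Gene bodies of 28 of the 90 genes overlap another protein-coding gene in the annotation. On the same strand 6 were counted, among them Ndufb8 and Ndufb9, and reads may be shared with the other gene. The 6 include Atp5md, counted on that strand only against Usmg5, which is another name of the same gene. Many OXPHOS genes also have processed pseudogenes, and the sources used here do not say how reads matching several places were counted.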

How the data were processed

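Single-cell 3′ RNA was measured in 2 libraries, 1 per group: tumours of mice given RP-6306 or vehicle, on day 10. The deposited matrices hold UMI counts per gene and cell barcode, not normalised; the submitters' processing notes name Cell Ranger 2.1.1 and the mm10 build, and how barcodes were chosen was not given there. The libraries held 158073632 UMIs in 15909 barcodes with RP-6306 and 135415063 UMIs in 17313 barcodes with vehicle.

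Barcodes under 500 UMIs or 300 genes, or with over 15% of UMIs from mitochondrial genes, were dropped. The automatic threshold of the doublet caller did not work, so the 6% of cells with the highest doublet scores were removed (947 with RP-6306, 985 with vehicle). Cells were clustered (2000 variable genes, 22 clusters) with scanpy 1.11.5 and python-igraph 0.11.9 and classes were named from marker lists. The UMIs of a class were added up within each library and each gene given as CPM of that total; ratios are log2 of CPM plus 1, RP-6306 over vehicle, for genes with at least 20 UMIs over both libraries. A log2 ratio of 0.32 or more in size was counted as past the bound. With 1 library per group no test was made. Intervals on ratios, levels and shares are exact at 95% (binomial, Poisson and Clopper-Pearson), cover counting error only, and a count of 0 was given the limit of 3 counts. The summing step was tested on simulated counts. The other tools were matplotlib 3.10.9, SciPy 1.17.1, scikit-learn 1.9.0, NumPy 2.4.6 and pandas 2.3.3 under Python 3.11.15.

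Free tumour RNA in a leukocyte class was estimated as the class's summed level of tumour genes over that of tumour-like cells. Promoters came from RefSeq (GRCm38.p6) and gene bodies from GENCODE on mm10. The genes named with values were the 3 highest and 3 lowest ratios of complex I and the 2 highest and 2 lowest of the other complexes in tumour-like cells, the 3 highest and 3 lowest in each other class, all with at least 50 CPM and 50 UMIs, the 5 highest levels and the 3 widest ranges over clusters; others were named after their values were seen. The members, marker lists and gene lists were chosen with earlier results of these data known. Alternatives covered the pseudocount, the UMI minimum, scaling, thinning, cell filters, class definition and free RNA.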

Additional observations from a re-analysis of the deposited data

Results flagged for a closer look

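Some OXPHOS genes lay on opposite sides of 0 in tumour-like cells and in a leukocyte class, with both counting intervals clear of 0 and both log2 ratios at least 0.1 in size. None of these differences was tested, since each group is 1 library. Cox7a2l had a log2 ratio of -0.15 in tumour-like cells, against 0.28 in CD8 T-like cells, 0.20 in CD4 T-like cells and 0.15 in macrophage and monocyte-like cells. Ndufa6 had -0.33 in tumour-like cells, against 0.14 in CD8 T-like cells and 0.15 in B cells. Ndufc2 had 0.14 in tumour-like cells, against -0.30 in CD8 T-like cells and -0.26 in CD4 T-like cells. Ndufs1 had 0.17 in tumour-like cells and -0.27 in CD4 T-like cells. In B cells Atp5a1, the catalytic-head α subunit, had -0.12 and Cox7b -0.16, against 0.18 and 0.11 in tumour-like cells.

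Unnamed clusters entered no comparison. Cluster 0, with 256 cells with RP-6306 and 1738 with vehicle and a median of 621 UMIs, had summed OXPHOS levels of 21149 CPM with RP-6306 and 12478 CPM with vehicle. Cluster 19, led by Neat1, Sdk1 and Magi1, with 155 and 297 cells, had 2729 and 1928 CPM, while its mitochondrially encoded subunits stood at 35662 and 29294 CPM. Its nuclear OXPHOS level was under that of every named class.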

How the results depend on the processing

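The tumour-like median stayed between 0.11 and 0.15 under 14 alternatives, above the all-gene median each time, and that within phases between 0.10 and 0.11; its counts past 0.32 ran from 3 to 9 genes higher and from 0 to 2 lower. With size factors the medians were 0.12 in macrophage and monocyte-like cells, -0.0042 in NK-like cells, and 0.043, 0.060 and 0.082 in tumour clusters 7, 11 and 13. Thinning gave 0.047 in cluster 7, 0.054 in cluster 11 and -0.014 in CD4 T-like cells, against 0.062, 0.037 and 0.027 over all genes, so cluster 7 and CD4 T-like cells lay below the background there. In NK-like cells thinning gave 0.031 against 0.056, a minimum of 100 UMIs 0.055 against 0.064, and leaving out the highest cell per gene 0.038 against -0.017. The mean of per-cell CPM was 0.065 in cluster 7. Sub-cluster m2 alone, an alternative chosen after seeing the data, gave 0.063. Subtracting free tumour RNA gave 0.069 in CD8 T-like, 0.077 in CD4 T-like and 0.070 in B cells, where all-gene medians rose to 0.057, 0.058 and 0.034, CPM over nuclear genes without ribosomal protein and receptor genes 0.076 in CD8 T-like cells, and classes from each cell's own markers -0.049 in CD4 T-like cells. The log2 level of tumour-like over CD8 T-like cells was 0.87 with RP-6306 and 0.80 with vehicle, 0.80 and 0.77 over that smaller gene set, and 4.36 and 3.88 in UMIs per cell. That of macrophage and monocyte-like over CD8 T-like cells was 0.56 and 0.42, then 0.39 and 0.27, and 2.24 and 1.43. At 1.5-fold 0 OXPHOS genes were past the bound in tumour-like cells, against 8 at a log2 ratio of 0.32. No paired analysis was possible because each group has 1 library, and for the same reason no replicate could be left out. The sign of the median depended on the setting in B cells, where 5 of 14 alternatives were above 0, and in CD4 T-like cells, where 11 of 13 were.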
